A study of Mus musculus with 9 samples.

Results

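The genes described are the pore-forming and auxiliary subunits of voltage-gated sodium channels, voltage-gated calcium channels and HCN channels, measured by RNA sequencing of the mouse hippocampus. They were chosen by symbol, with earlier results of these data known. The rule took protein-coding genes named Scn with a number and a or b, or Cacna1 with a letter. It also took those named Cacna2d1 to Cacna2d4, Cacnb1 to Cacnb4, or Hcn with a number. The rule found 36 genes among the 33175 with a count in any library, of which 18409 are protein-coding. They comprise 10 sodium channel alpha subunits, 4 sodium channel beta subunits, 10 calcium channel alpha-1 subunits, 4 calcium channel beta subunits, 4 alpha-2-delta subunits and 4 HCN channels.

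Hippocampal RNA came from female mice aged 9 months, in 3 groups of 3 libraries. WT vehicle mice were C57BL/6J and received the blank solvent by mouth 4 times a week. 3xTg vehicle mice, a model of Alzheimer's disease labelled APPSwe, tauP301L and PS1 with a methionine-to-valine change, received the same solvent on the same schedule. Treated 3xTg mice received LP-10d, a compound given here by code name only, by mouth at 10 mg/kg, 4 times in each week, over 1 month. All groups, controls included, were therefore dosed by mouth. In the labels the PS1 position differs in each of the 6 3xTg libraries, from M146V in 3xTg vehicle replicate 1 to M151V in treated replicate 3, counting up by 1, and the genotype was not checked here. In the 3xTg line the APP and tau transgenes are driven by the neuronal Thy1 promoter and PS1 is a knock-in. The WT vehicle mice may differ from the 3xTg line in strain background as well as in the transgenes, and these cannot be told apart in any comparison with them. No label says that the libraries of a group come from separate animals, so the p-values speak only of the spread among the sequenced samples, which may be technical.

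Voltage-gated sodium channels open on depolarization and carry the rising phase of the action potential; the alpha subunit forms the pore and the beta subunits set its gating and its place in the membrane. Calcium channels couple depolarization to transmitter release, gene expression and burst firing, with an alpha-1 pore, a cytoplasmic beta subunit and an extracellular alpha-2-delta subunit that brings the complex to the surface. HCN channels open on hyperpolarization and carry a mixed cation current that sets the resting potential and dampens dendritic input in hippocampal pyramidal cells.

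Total counts ran from 16582086 to 19170969 per library, and the 36 genes took 0.471% to 0.558% of them. Markers of hippocampal excitatory neurons were present in every library, with none of 12 at 0 and summed levels of 3570 to 5229 CPM, where CPM is the usual count per unit of sequencing depth, with library sizes scaled by TMM. Libraries stood apart by markers of neighboring tissue. In 3xTg vehicle replicate 2, 12 striatum markers summed to 1965 CPM, against 265 to 452 CPM in the other 8 libraries. All 12 were highest there, as were 12.6% of all genes tested. The marker lists were chosen with earlier results of these data known, so this count is no independent check. In WT vehicle replicate 3, 12 thalamus markers summed to 1002 CPM, with 879 CPM in 3xTg vehicle replicate 2 and 449.9 to 568 CPM in the other 7, and mitochondrial genes took 5.04% of counts against 2.28% to 2.86% elsewhere. Log2 fold changes that move by over 1.5 times without these 2 libraries are given with and without them. Choroid plexus markers, 10 in the list and none at 0 everywhere, summed to 955 to 4486 CPM in WT vehicle replicates 2 and 3, 3xTg vehicle replicate 1 and treated replicates 1 and 2, and to 45.5 to 138 CPM in the other 4 libraries. All 10 had a negative log2 fold change in 3xTg vehicle against WT vehicle (median -2.55) and a positive one in treated against vehicle 3xTg (median 1.52), and their part in the channel results was not tested.

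Levels of different genes were compared per length, as the deposited FPKM averaged over the 9 libraries. Cacnb3 at 73.0 FPKM, Scn2b at 71.3 FPKM and Hcn2 at 69.4 FPKM were the most abundant of the genes reported here, and their order was not separated: Cacnb3 exceeded Scn2b in 4 of 9 libraries and Scn2b exceeded Hcn2 in 6 of 9. Below them came Cacnb1 at 47.5 FPKM and Scn3b at 43.1 FPKM. Among the sodium and calcium channel pores the most abundant were Cacna1h at 30.0 FPKM and Scn8a at 29.7 FPKM, of which Cacna1h was the higher in 4 of 9 libraries, then Cacna1a at 23.4 FPKM.

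The low end of the order held channels of muscle, retina and sensory neurons. Cacna1f, the retinal L-type channel, was at 0.133 FPKM, and Cacna1s, that of skeletal muscle, at 0.0652 FPKM. Scn4a of skeletal muscle had 24 counts over all 9 libraries, Scn10a of sensory neurons 14 and Scn11a of sensory neurons 12, with 0 to 5 counts in any library. A count of 0, which allows up to 3 counts by counting error alone, was found for Scn4a in treated replicate 1, for Scn10a in WT vehicle replicate 1 and treated replicate 1, and for Scn11a in WT vehicle replicate 1, 3xTg vehicle replicate 3 and treated replicate 2. These 3 genes did not pass the filter on low counts, so 33 of the 36 were tested.

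**Figure D1:**
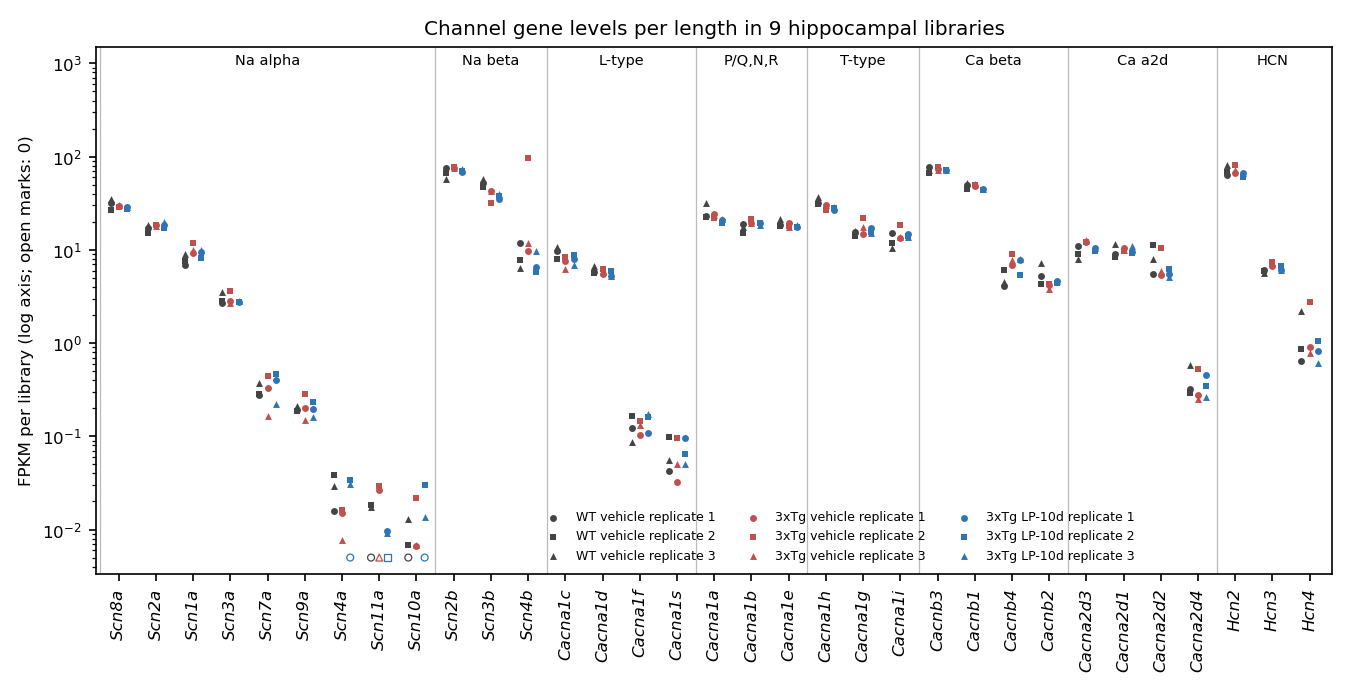
Level of each channel gene reported, in each of the 9 libraries, as deposited FPKM on a log axis, ordered by role and colored by group, with replicates as separate marks and open marks for 0. Cacnb3 has the highest mean at 73.0 FPKM, Scn10a the lowest at 0.0110 FPKM, and the lone high mark of Scn4b is 3xTg vehicle replicate 2.

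Within each role 1 gene usually led. Scn8a, which encodes Nav1.6 of the axon initial segment, made up 51.6% ± 2.53 of the summed FPKM of the sodium channel alpha subunits in the WT vehicle group (SD, n = 3, as for each group), 47.2% ± 2.30 in the 3xTg vehicle group and 47.3% ± 0.775 under treatment. Scn2a, which encodes Nav1.2, made up 27.8% ± 0.742, 29.6% ± 0.738 and 30.8% ± 0.743 of it, with the groups in that order. Scn1a, the Nav1.1 channel of inhibitory neurons, was next. The Scn2a and Scn1a shares of every 3xTg library lay above those of every WT vehicle library, at 29.0% to 31.6% against 27.1% to 28.5% for Scn2a and 14.4% to 18.3% against 11.5% to 14.0% for Scn1a. These shares sum to a whole, so a lower share of Scn8a raises the others, and they were given no test. No background was computed for such a separation of shares. In CPM, Scn2a and Scn1a overlapped between both 3xTg groups and WT vehicle, a comparison in which 3.83% of all genes were higher without overlap. In bulk tissue, fewer cells that express a gene and less of its RNA per cell cannot be told apart, here and in every result below. Markers of GABAergic interneurons moved beside Scn1a. The 12 summed to 1194 to 1284 CPM over the WT vehicle libraries and 1335 to 1536 CPM over those of 3xTg vehicle. Over the treated ones they summed to 1225 to 1409 CPM, with none at 0 everywhere. The 1536 CPM was in 3xTg vehicle replicate 2, the library high in striatum markers, where 4 of the 12 were highest. Gad1, Gad2 and Slc32a1 were at 362, 171 and 112 CPM there, against at most 312, 125 and 80.6 CPM in any other library. Replicates 1 and 3 of 3xTg vehicle summed to 1335 and 1455 CPM. In 3xTg vehicle against WT vehicle 11 of 12 had a positive log2 fold change (median 0.18), 5 had no overlap of the groups and 4 had an unadjusted p under 0.05, with 0.0758 as the smallest edgeR adjusted p. In both 3xTg groups against WT vehicle 10 of 12 were positive and 5 had an unadjusted p under 0.05. The background shares for such counts stand with the comparisons below, and the part of these markers in the Scn1a values was not tested.

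Hcn2 held 84.2% to 87.7% of the HCN sum in every library. Cacnb3 held 53.0% to 57.3% of the calcium channel beta sum. Among the alpha-2-delta genes no single one led throughout. Cacna2d3 ranged from 28.6% to 44.4% and Cacna2d1 from 28.6% to 40.8%. Cacna2d2, a subunit of cerebellar and inhibitory neurons, ranged from 18.9% to 39.1%.

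**Figure D2:**
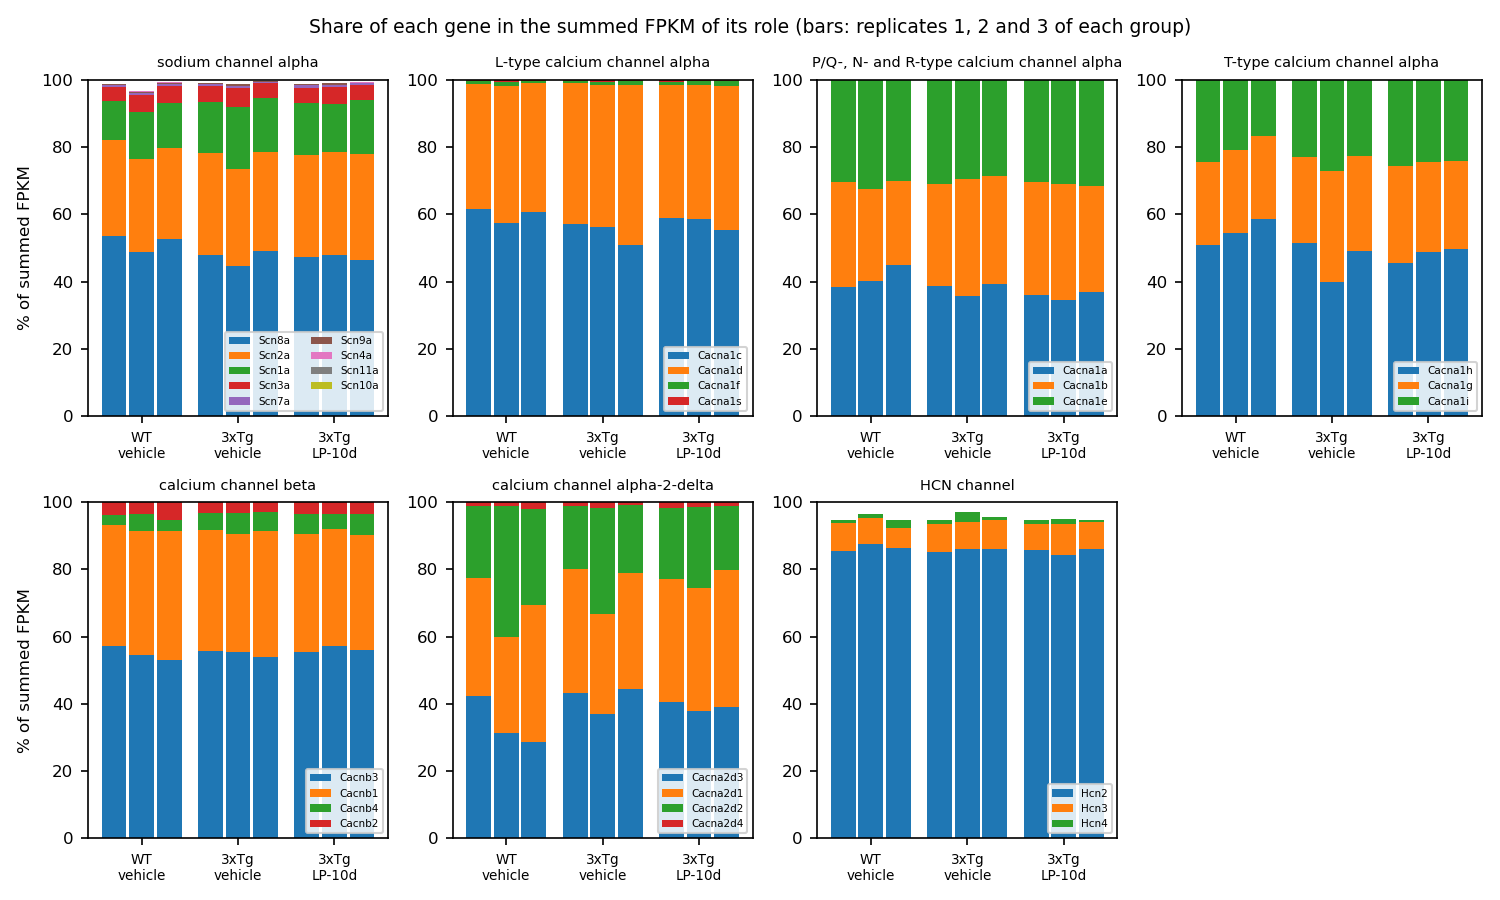
Share of each gene in the summed FPKM of its role, in percent, with 1 stacked bar per library and replicates 1, 2 and 3 from left to right in each group; genes not reported here are left out of the bars, so some end below 100%, and the sodium channel beta subunits are not drawn. Scn8a, Cacnb3 and Hcn2 fill the largest part of their bars in all 9 libraries, and the Cacna2d2 part varies from 18.9% to 39.1%.

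The first comparison, 3xTg vehicle against WT vehicle, asked how the channel genes differ in the transgenic hippocampus. Of the 33 genes tested, 0 passed an adjusted p of 0.05 by the quasi-likelihood test of edgeR, adjusted after Benjamini and Hochberg over all 17396 genes tested, of which 0.00575% passed. At an unadjusted p under 0.05 edgeR counted 9 channel genes, 5 higher and 4 lower, against 14.1% of all genes. DESeq2 called 1, Cacnb4, against 2.02% of all genes, and limma-voom called 0. Higher in 3xTg vehicle with no overlap of the groups were 3 genes, Cacnb4, Cacna2d3 and Hcn3, against 9.38% of all genes. Lower with no overlap were 2, Scn3b and Cacna1h, against 7.99%, so that 5 of 33 channel genes stood beside 17.4% of all genes. The median log2 fold change of the channel genes was -0.01, with 16 higher and 17 lower, beside 0.00 for all genes; with total counts as the scaling it was 0.03, beside 0.04 for all genes. The non-overlapping count was near the background share and the unadjusted count above it, and neither was tested as a set.

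LP-10d-treated 3xTg was next compared with 3xTg vehicle, the question being whether these genes differ with the compound. EdgeR's adjusted threshold was passed by 0 of 33 channel genes and by 0.0% of all genes, and the same 0 channel genes were called by DESeq2, against 0.00575% of all genes, and by limma-voom. At an unadjusted p under 0.05 there were 2, both lower, Scn4b and Cacna2d3, against 2.9% of all genes. Cacnb2 was higher without overlap, where 5.82% of all genes were, and 4, Cacna1a, Cacnb1, Cacna2d3 and Hcn3, were lower without overlap, where 5.81% were, together 5 of 33 against 11.6% of all genes. The median log2 fold change was -0.07, with 9 channel genes higher and 24 lower, beside 0.00 for all genes. This comparison shares the 3xTg vehicle libraries with the first, and the values of both stand side by side below without a test of their relation.

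Against WT vehicle, treated 3xTg had 0 of 33 channel genes past edgeR's adjusted threshold, 0 by DESeq2 and 0 by limma-voom, where all genes gave 0.0% by edgeR and 0.264% by DESeq2. The unadjusted count was 4, with Cacnb4 higher and Scn3b, Cacna1h and Cacna1a lower, against 8.75% of all genes. Those 3 lower genes were also the 3 whose groups did not overlap, against 6.89% of all genes, and 0 were higher without overlap, against 7.49%, which makes 3 of 33 against 14.4%. In the comparison of both 3xTg groups with WT vehicle, edgeR again called 0, against 0.0% of all genes, and limma-voom 0. DESeq2 called 2, Cacnb4 and Scn3b, against 1.81% of all genes, and edgeR counted 8 at an unadjusted p under 0.05, 2 higher and 6 lower, against 14.8% of all genes. Scn3b and Cacna1h were lower than all WT vehicle libraries in all 6 3xTg libraries, 2 of 33 against 3.1% of all genes, and 0 were higher in this way, against 3.83%; in either direction it was 6.93% of all genes. The 4 comparisons share libraries, and a p that misses the threshold does not show that levels were equal.

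**Figure D3:**
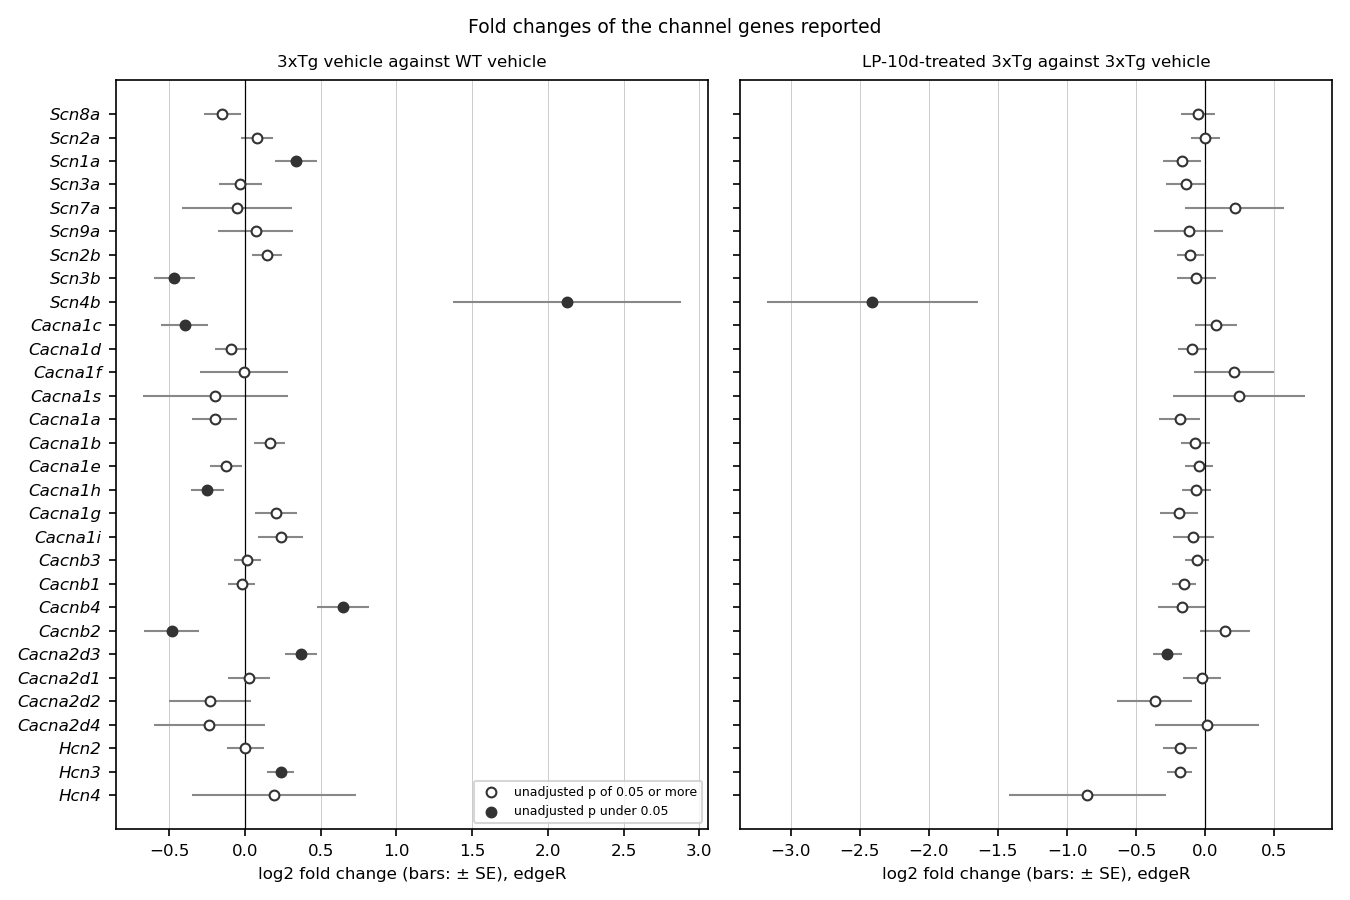
Log2 fold change by edgeR of each tested channel gene that is reported, with bars of ± SE and filled marks at an unadjusted p under 0.05, for 3xTg vehicle against WT vehicle on the left and LP-10d-treated 3xTg against 3xTg vehicle on the right, each on its own horizontal scale. Most marks lie near 0, and Scn4b lies far out with the widest bar in both panels, at 2.13 and -2.41.

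Among the sodium channel alpha subunits, 1 of the 7 tested had an unadjusted p under 0.05 in the first comparison. Scn1a (ENSMUSG00000064329, chromosome 2, 66270778 to 66440840, minus strand in mm10) was at 79.3, 83.0 and 108 CPM in WT vehicle replicates 1, 2 and 3, 103, 129 and 109 CPM in those of 3xTg vehicle and 104, 89.2 and 111 CPM in those of treated 3xTg. All 3 WT vehicle values lay at 108 CPM or below, and WT vehicle replicate 3 overlapped the 3xTg vehicle values. In 3xTg vehicle against WT vehicle its log2 fold change was 0.34 ± 0.14 (SE), with an unadjusted p of 0.0351 and an edgeR adjusted p of 0.324. Scn8a, the leading alpha subunit, was at 520.5, 409 and 596 CPM in WT vehicle replicates 1, 2 and 3, 461, 446 and 468 CPM in those of 3xTg vehicle and 447, 421 and 459 CPM in those of treated 3xTg. Its lowest and its highest value were both in WT vehicle, so the groups overlapped fully, and its log2 fold change was -0.15 ± 0.12 (SE) in the first comparison (edgeR adjusted p = 0.579). Without WT vehicle replicate 3, its highest library, the value was -0.03, without WT vehicle replicate 2, its lowest, -0.29, and without both libraries that stand apart -0.0048.

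The genes Scn1a, Scn2a, Scn3a, Scn7a and Scn9a lie together on chromosome 2 and are similar in sequence, and how reads shared between such copies were counted is not given in the sources used here.

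The beta subunits gave the smallest p-value of all channel genes. Scn3b (ENSMUSG00000049281, chromosome 9, 40269217 to 40291618, plus strand), which encodes the beta-3 subunit, an immunoglobulin-fold protein that binds the alpha subunit without a disulfide bond, was at 289.8, 254 and 338 CPM in WT vehicle replicates 1, 2 and 3, 236, 172 and 231 CPM in those of 3xTg vehicle and 191, 202 and 218 CPM in those of treated 3xTg. The 3 WT vehicle libraries were the 3 highest of the 9, and no 3xTg library reached them. The mean of the WT vehicle group was 294 ± 42.3 CPM, that of 3xTg vehicle 213 ± 35.7 CPM and that of treated 3xTg 204 ± 13.9 CPM (SD, n = 3 for each). Both 3xTg groups against WT vehicle differed by a log2 fold change of -0.50 ± 0.12 (SE), with an unadjusted p of 0.00169, an edgeR adjusted p of 0.159 and a DESeq2 adjusted p of 0.0135; over all alternatives the adjusted p ran from 0.0135 to 0.354.

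The single comparisons gave Scn3b a log2 fold change of -0.47 ± 0.14 (SE) in 3xTg vehicle (edgeR adjusted p = 0.218) and -0.53 ± 0.14 (SE) in treated 3xTg (edgeR adjusted p = 0.516), both against WT vehicle. Treated against vehicle 3xTg it was -0.06 ± 0.14 (SE), or -0.19 without both libraries that stand apart. Its highest value was in WT vehicle replicate 3 and its lowest in 3xTg vehicle replicate 2, the libraries that stand apart in thalamus and striatum markers. Without both, the value for 3xTg vehicle against WT vehicle was -0.23 and that for both 3xTg groups -0.32, in the same direction. The summed hippocampal excitatory neuron markers spanned 4140 to 5229 CPM over the WT vehicle libraries and 3570 to 4724 CPM over those of 3xTg vehicle. Over the treated ones they spanned 4277 to 4601 CPM. The 3570 CPM was in 3xTg vehicle replicate 2, against 4140 CPM or more in every other library. In both 3xTg groups against WT vehicle 10 of 12 were lower, with no share over all genes given beside this count. WT vehicle replicate 3 held the highest value for 4 of the 12, where it was highest for 26.3% of all genes. The part of these markers in the Scn3b value was not tested.

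Scn2b, the beta-2 subunit, was at 367, 300.3 and 287 CPM in WT vehicle replicates 1, 2 and 3, 349, 361 and 345 CPM in those of 3xTg vehicle and 312, 322 and 346 CPM in those of treated 3xTg. Its groups overlapped, and its log2 fold change was 0.14 ± 0.10 (SE) in 3xTg vehicle against WT vehicle (edgeR adjusted p = 0.512), 0.05 without the 2 libraries that stand apart and 0.26 without WT vehicle replicate 1.

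Scn4b (ENSMUSG00000046480, chromosome 9, 45138395 to 45154152, plus strand), the beta-4 subunit of fast-spiking and striatal neurons, had the largest fold changes among the channel genes, and they rested on 1 library. Its level was 61.5, 37.5 and 34.0 CPM in WT vehicle replicates 1, 2 and 3, 47.9, 475 and 58.1 CPM in those of 3xTg vehicle and 31.8, 28.6 and 48.7 CPM in those of treated 3xTg. 3xTg vehicle replicate 2 stood 7.72-fold above the next library, and the remaining 8 overlapped. With that library the log2 fold change of 3xTg vehicle against WT vehicle was 2.13 ± 0.76 (SE) (unadjusted p = 0.0181, edgeR adjusted p = 0.281), without it 0.26, and without WT vehicle replicate 3 as well 0.09. Treated against vehicle 3xTg it was -2.41 ± 0.77 (SE) with the library (unadjusted p = 0.0102, edgeR adjusted p = 0.9997) and -0.54 without it. DESeq2 gave no adjusted p for Scn4b in either comparison.

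The striatum markers moved with Scn4b. In that library Drd2, the dopamine D2 receptor, was at 79.7 CPM against 2.58 to 9.60 CPM in the others, and Penk, the enkephalin precursor, at 165 CPM against 11.1 to 34.6 CPM. The list of 12 summed to 316 to 452 CPM over the WT vehicle libraries, 286 to 1965 CPM over those of 3xTg vehicle and 265 to 286 CPM over the treated ones, with no marker at 0 in all libraries. Without that library the striatum sums of all other libraries lay at 452 CPM or below, and the Scn4b fold changes were those given above.

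**Figure D4:**
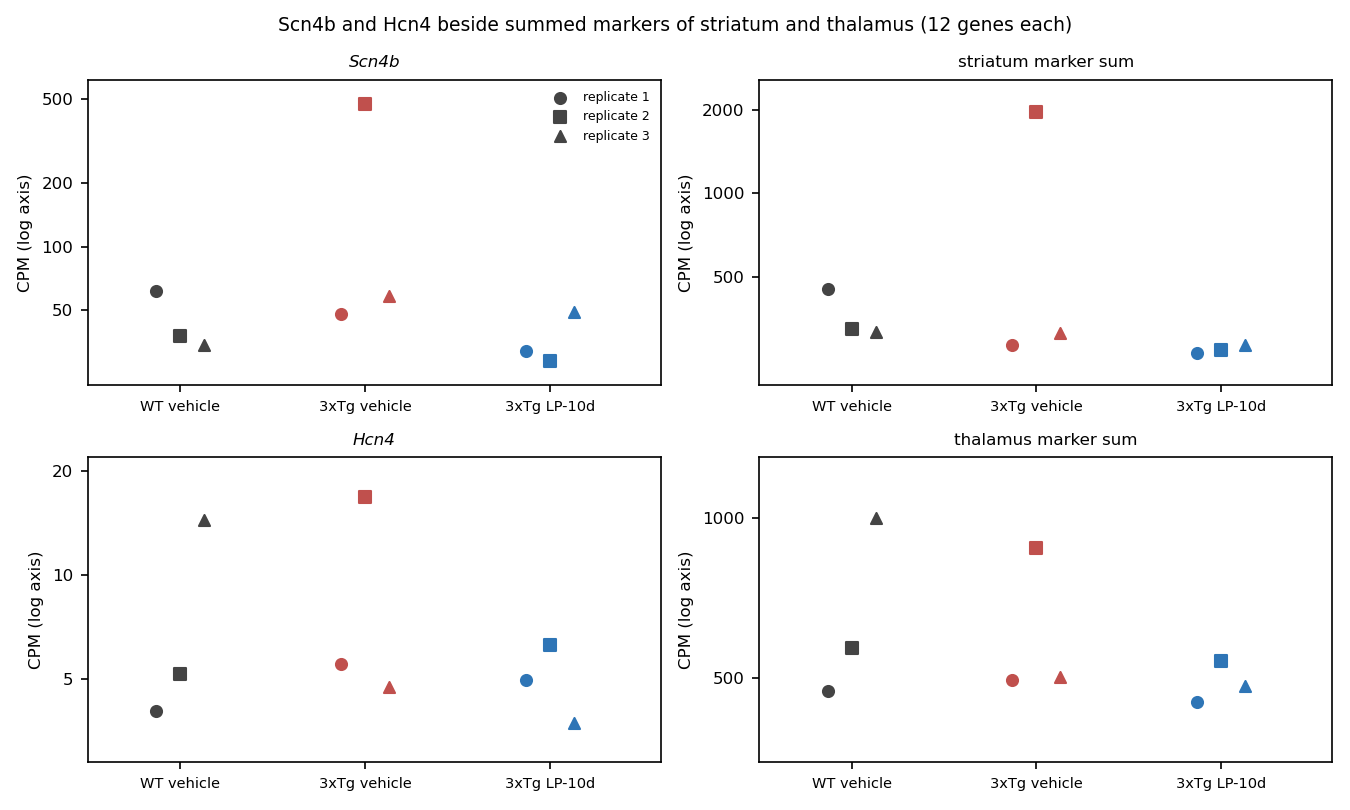
Level in CPM on log axes of Scn4b and Hcn4 on the left, beside the summed CPM of 12 striatum markers and 12 thalamus markers on the right, for each library. 3xTg vehicle replicate 2 is the high mark for Scn4b at 475 CPM and for the striatum markers at 1965 CPM, and that library and WT vehicle replicate 3 are the high marks for Hcn4 and for the thalamus markers.

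The L-type channels couple activity to gene expression in neurons. Cacna1c (ENSMUSG00000051331, chromosome 6, 118587240 to 119196890, minus strand), which encodes Cav1.2, was at 218, 168 and 247 CPM in WT vehicle replicates 1, 2 and 3, 165, 180.4 and 135 CPM in those of 3xTg vehicle and 169.9, 188 and 149.9 CPM in those of treated 3xTg. WT vehicle replicates 1 and 3 were the 2 highest libraries, while replicate 2 lay within the range of the 3xTg libraries. Its log2 fold change was -0.40 ± 0.15 (SE) in 3xTg vehicle against WT vehicle (unadjusted p = 0.0260, edgeR adjusted p = 0.305) and -0.36 ± 0.13 (SE) in both 3xTg groups against WT vehicle (edgeR adjusted p = 0.277), the latter -0.50 to -0.23 on leaving out each library in turn, with the smallest value without WT vehicle replicate 3. Cacna1d, the Cav1.3 channel that opens at lower voltages, ranged from 79.2 to 109 CPM over the 9 libraries. Its exons overlap those of Chdh on the opposite strand by 4.67% of their length. Chdh had 2094 counts in all libraries against 14344 for Cacna1d. All 4 L-type genes had a negative log2 fold change in 3xTg vehicle against WT vehicle, from -0.40 to -0.01. The 3 other than Cacna1c had an unadjusted edgeR p above 0.05 and turned positive on leaving out 1 library. Their highest values were 0.01 for Cacna1d, 0.21 for Cacna1f and 0.17 for Cacna1s. Without both libraries that stand apart all 4 were negative, from -0.78 for Cacna1s, with only 69 counts over all 9 libraries, to -0.03 for Cacna1d.

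The P/Q-, N- and R-type channels drive transmitter release at presynaptic terminals. Cacna1a (ENSMUSG00000034656, chromosome 8, 84338639 to 84640246, plus strand), the P/Q-type pore, was at 296, 271 and 421 CPM in WT vehicle replicates 1, 2 and 3, 301, 266 and 291 CPM in those of 3xTg vehicle and 254, 236 and 265 CPM in those of treated 3xTg. WT vehicle replicate 3 was the highest library, and the 3 treated values lay below all 3 of either vehicle group. The margin was narrow, with 265 CPM in treated replicate 3 against 266 CPM in 3xTg vehicle replicate 2. Treated 3xTg against WT vehicle gave a log2 fold change of -0.39 ± 0.15 (SE) (unadjusted p = 0.0244, edgeR adjusted p = 0.569), and treated against vehicle 3xTg gave -0.19 ± 0.15 (SE) (edgeR adjusted p = 0.9997). Without WT vehicle replicate 3 the first of these was -0.17. Cacna1b, the N-type pore, ranged from 148 to 209.6 CPM and Cacna1e, the R-type pore, from 434 to 579 CPM, with overlapping groups and no unadjusted p under 0.05 in the 4 comparisons.

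The T-type channels open near rest and support burst firing. Cacna1h (ENSMUSG00000024112, chromosome 17, 25374285 to 25433783, minus strand), the Cav3.2 channel, was at 319, 294 and 388 CPM in WT vehicle replicates 1, 2 and 3, 292, 259.8 and 290.0 CPM in those of 3xTg vehicle and 255, 271 and 279 CPM in those of treated 3xTg. The 3 WT vehicle libraries were the 3 highest, by a narrow margin, since WT vehicle replicate 2 and 3xTg vehicle replicate 1 differed by under 1%. The log2 fold change of both 3xTg groups against WT vehicle was -0.28 ± 0.09 (SE) (unadjusted p = 0.0117, edgeR adjusted p = 0.254). Without the 2 libraries that stand apart it was -0.13. Cacna1g and Cacna1i, both expressed strongly in the thalamus, went the other way in the first comparison, at log2 fold changes of 0.21 ± 0.14 (SE) and 0.23 ± 0.15 (SE), with unadjusted p-values of 0.166 and 0.145. Both were highest in 3xTg vehicle replicate 2, at 221 CPM and 178 CPM against 174.5 and 154 CPM in the next library, while Cacna1i was lowest of the 9, at 111 CPM, in WT vehicle replicate 3, where the thalamus markers summed highest. Without both libraries the log2 fold changes were 0.10 for Cacna1g and -0.01 for Cacna1i.

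Of the calcium channel beta subunits, which chaperone the alpha-1 pore to the membrane, Cacnb4 (ENSMUSG00000017412, chromosome 2, 52428320 to 52676831, minus strand) had the smallest unadjusted p of the channel genes in 3xTg vehicle against WT vehicle. Its level was 38.1, 53.3 and 43.1 CPM in WT vehicle replicates 1, 2 and 3, 61.7, 79.1 and 69.9 CPM in those of 3xTg vehicle and 68.3, 47.7 and 71.5 CPM in those of treated 3xTg. Every 3xTg vehicle library lay above every WT vehicle library, while treated replicate 2 fell within the WT vehicle range and treated replicates 1 and 3 above it. The mean of the WT vehicle group was 44.8 ± 7.75 CPM, that of 3xTg vehicle 70.2 ± 8.73 CPM and that of treated 3xTg 62.5 ± 12.9 CPM (SD, n = 3 for each). In 3xTg vehicle against WT vehicle the log2 fold change was 0.65 ± 0.17 (SE), or 1.57-fold, with an unadjusted p of 0.00358, an edgeR adjusted p of 0.186 and a DESeq2 adjusted p of 0.0275; over all alternatives the adjusted p ran from 0.0275 to 0.453.

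Cacnb4 differed by 0.56 ± 0.15 (SE) on the log2 scale in both 3xTg groups against WT vehicle (edgeR adjusted p = 0.201, DESeq2 adjusted p = 0.0297) and by 0.48 ± 0.17 (SE) in treated 3xTg against WT vehicle (edgeR adjusted p = 0.568). Leaving out each library in turn gave log2 fold changes of 0.54 to 0.79 for the first comparison, and leaving out both libraries that stand apart gave 0.52. Treated against vehicle 3xTg the value was -0.17 ± 0.17 (SE), and -0.07 without both. Most neocortex and GABAergic interneuron markers were also higher on average in 3xTg vehicle than in WT vehicle. The 10 neocortex markers summed to 387 to 546 CPM over the WT vehicle libraries and 509 to 711 CPM over those of 3xTg vehicle. Over the treated ones they summed to 447 to 607 CPM, with none at 0 everywhere. The sums did not follow Cacnb4 library by library, with 546 CPM in WT vehicle replicate 3 against 529 and 509 CPM in 3xTg vehicle replicates 1 and 2. In 3xTg vehicle against WT vehicle 9 of 10 neocortex markers had a positive log2 fold change (median 0.79) and 3 did not overlap. The interneuron list given above had 11 of 12 and 5. Of all genes, 9.38% were higher without overlap in that comparison. The part of either list in the Cacnb4 values was not tested. A transcript on the opposite strand, A430018G15Rik, shares 16.0% of the exon bases of Cacnb4 but had only 2 counts in all libraries.

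Cacnb2, the beta-2 subunit, was at 70.5, 54.9 and 102 CPM in WT vehicle replicates 1, 2 and 3, 55.1, 57.0 and 50.1 CPM in those of 3xTg vehicle and 59.7, 57.9 and 61.9 CPM in those of treated 3xTg. WT vehicle replicate 3 was the highest by 1.44-fold over the next, and WT vehicle replicate 2 lay among the 3xTg libraries. Its log2 fold change was -0.49 ± 0.18 (SE) in 3xTg vehicle against WT vehicle (unadjusted p = 0.0226, edgeR adjusted p = 0.296), -0.26 without the 2 libraries that stand apart. Cacnb3, the leading beta subunit, was at 323, 258 and 306 CPM in WT vehicle replicates 1, 2 and 3, 296, 309 and 289 CPM in those of 3xTg vehicle and 284, 283 and 292 CPM in those of treated 3xTg. Its groups overlapped, and its log2 fold change was 0.01 ± 0.09 (SE) in that comparison and 0.01 without those libraries.

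The alpha-2-delta subunit Cacna2d3 (ENSMUSG00000021991, chromosome 14, 28904943 to 29721864, minus strand), a surface-delivery subunit, was at 97.7, 77.1 and 74.6 CPM in WT vehicle replicates 1, 2 and 3, 106, 104 and 112 CPM in those of 3xTg vehicle and 90.8, 83.4 and 92.1 CPM in those of treated 3xTg. All 3 values of 3xTg vehicle lay above all 6 of the other libraries. The first comparison gave a log2 fold change of 0.37 ± 0.11 (SE) (unadjusted p = 0.00550, edgeR adjusted p = 0.208) and treated against vehicle 3xTg gave -0.28 ± 0.11 (SE) (unadjusted p = 0.0255, edgeR adjusted p = 0.9997). Treated 3xTg and WT vehicle differed by 0.09 ± 0.11 (SE) (edgeR adjusted p = 0.749), 0.02 without the 2 libraries that stand apart. Both comparisons use the 3xTg vehicle libraries, so the second value is not independent of the first, and neither passed the threshold by edgeR or DESeq2. Without those 2 libraries the first values were 0.31 and -0.29.

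Cacna2d2 was at 44.7, 88.0 and 67.5 CPM in WT vehicle replicates 1, 2 and 3, 42.6, 81.7 and 46.3 CPM in those of 3xTg vehicle and 43.2, 48.1 and 41.1 CPM in those of treated 3xTg. WT vehicle replicate 2, 3xTg vehicle replicate 2 and WT vehicle replicate 3 were the 3 high libraries, so each vehicle group held both high and low values. Its log2 fold change was -0.60 ± 0.27 (SE) in treated 3xTg against WT vehicle (unadjusted p = 0.0526, edgeR adjusted p = 0.569). Leaving out 1 library moved it to -0.35 without WT vehicle replicate 2 and to -0.81 without WT vehicle replicate 1. Cacna2d1, the target of gabapentin in pain pathways, ranged from 100.5 to 151 CPM with overlapping groups, and Cacna2d4, the retinal alpha-2-delta subunit, from 2.34 to 5.90 CPM.

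Promoter sequence is shown for Cacnb4 and Cacna2d3, the 2 genes with the smallest unadjusted p among those higher in 3xTg vehicle. The windows hold the 250 bases before a RefSeq start site in GRCm38.p6, printed 5′ to 3′ on the minus strand of each gene, for Cacnb4 at chr2:52558612-52558861 and for Cacna2d3 at chr14:29721865-29722114. Capitals mark CCAAT and the GC box GGGCGG, each searched on both strands, so that CCGCCC is the GC box on the other strand.
Cacnb4: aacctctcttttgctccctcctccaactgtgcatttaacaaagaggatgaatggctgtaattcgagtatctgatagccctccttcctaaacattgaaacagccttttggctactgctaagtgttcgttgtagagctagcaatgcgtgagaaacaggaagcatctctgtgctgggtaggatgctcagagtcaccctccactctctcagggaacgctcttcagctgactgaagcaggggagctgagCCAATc
Cacna2d3: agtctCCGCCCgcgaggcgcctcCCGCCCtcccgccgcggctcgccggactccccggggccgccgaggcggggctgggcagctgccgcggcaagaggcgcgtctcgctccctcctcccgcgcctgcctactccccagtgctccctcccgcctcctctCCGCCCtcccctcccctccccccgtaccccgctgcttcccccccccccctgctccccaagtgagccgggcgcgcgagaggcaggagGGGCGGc
The Cacnb4 window has a GC content of 48.8%, 4 CpG and 1 CCAAT that begins 6 bases before the start, and no GC box. It belongs to an internal start of the gene, 1 of 3 starts that RefSeq lists, and gene counts cannot tell which start was used. The windows of the other starts overlap annotated exons and are not printed; they have GC contents of 71.2% and 79.6%, 23 and 37 CpG, and 0 and 6 GC boxes, so how Cacnb4 compares with Cacna2d3 depends on the window. The Cacna2d3 window has a GC content of 80.0%, 30 CpG and 4 GC boxes, the nearest beginning 7 bases before the start. RefSeq windows were found for 26 of the 36 genes, 36 windows in all; a GC box was in 41.7% of these against 32.7% of all 32851 windows, and CCAAT in 22.2% against 33.8%. These matches describe the letters only.

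The HCN channels carry the current that opens on hyperpolarization. Hcn2, their leading member, was at 207, 211 and 276 CPM in WT vehicle replicates 1, 2 and 3, 211, 257 and 228 CPM in those of 3xTg vehicle and 209, 191 and 212 CPM in those of treated 3xTg. Its 2 highest libraries were 3xTg vehicle replicate 2 and WT vehicle replicate 3, and its groups overlapped. The log2 fold change was 0.00 ± 0.12 (SE) in 3xTg vehicle against WT vehicle and -0.18 ± 0.12 (SE) in treated against vehicle 3xTg, and without those 2 libraries 0.06 and -0.10.

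Hcn3 (ENSMUSG00000028051, chromosome 3, 89146074 to 89160196, minus strand) was at 25.8, 23.7 and 25.1 CPM in WT vehicle replicates 1, 2 and 3, 27.6, 30.8 and 29.6 CPM in those of 3xTg vehicle and 24.9, 27.4 and 25.1 CPM in those of treated 3xTg. The 3 vehicle-treated 3xTg values were the 3 highest of the 9, with no overlap with either other group, though the treated values came close. Its log2 fold change was 0.24 ± 0.09 (SE) in 3xTg vehicle against WT vehicle (unadjusted p = 0.0229, edgeR adjusted p = 0.296) and -0.19 ± 0.09 (SE) in treated against vehicle 3xTg (unadjusted p = 0.0612). Exons of Pklr on the opposite strand cover 17.1% of the exon bases of Hcn3, and Pklr had 47 counts in all libraries against 4327 for Hcn3.

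Hcn4, the pacemaker channel of heart and thalamus, was at 4.06, 5.19 and 14.4 CPM in WT vehicle replicates 1, 2 and 3, 5.52, 16.9 and 4.74 CPM in those of 3xTg vehicle and 4.97, 6.28 and 3.73 CPM in those of treated 3xTg. WT vehicle replicate 3 and 3xTg vehicle replicate 2 stood high, at 14.4 and 16.9 CPM, and the other 7 libraries lay between 3.73 and 6.28 CPM. The same 2 libraries had the highest sums of thalamus markers. Tcf7l2, a transcription factor of thalamic neurons, was at 54.3 and 26.6 CPM in them against 3.63 to 12.9 CPM in the other 7, and Prkcd, a kinase of thalamic relay neurons, at 157 and 151 CPM against 27.0 to 78.7 CPM. The 12 thalamus markers summed to 472 to 1002 CPM over the WT vehicle libraries, 495 to 879 CPM over those of 3xTg vehicle and 449.9 to 537 CPM over the treated ones, with none at 0 in all libraries, and their part in the Hcn4 values was not tested. The log2 fold changes of Hcn4 were 0.19 ± 0.54 (SE) in 3xTg vehicle against WT vehicle and -0.85 ± 0.57 (SE) in treated against vehicle 3xTg, with unadjusted p-values of 0.732 and 0.165. Without both high libraries they were 0.14 and -0.04. Leaving out 1 library, the first was 0.95 without WT vehicle replicate 3 and turned negative without 3xTg vehicle replicate 2 (-0.62), WT vehicle replicate 1 (-0.12) or WT vehicle replicate 2 (-0.04), and the second was -0.04 without 3xTg vehicle replicate 2.

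**Figure D5:**
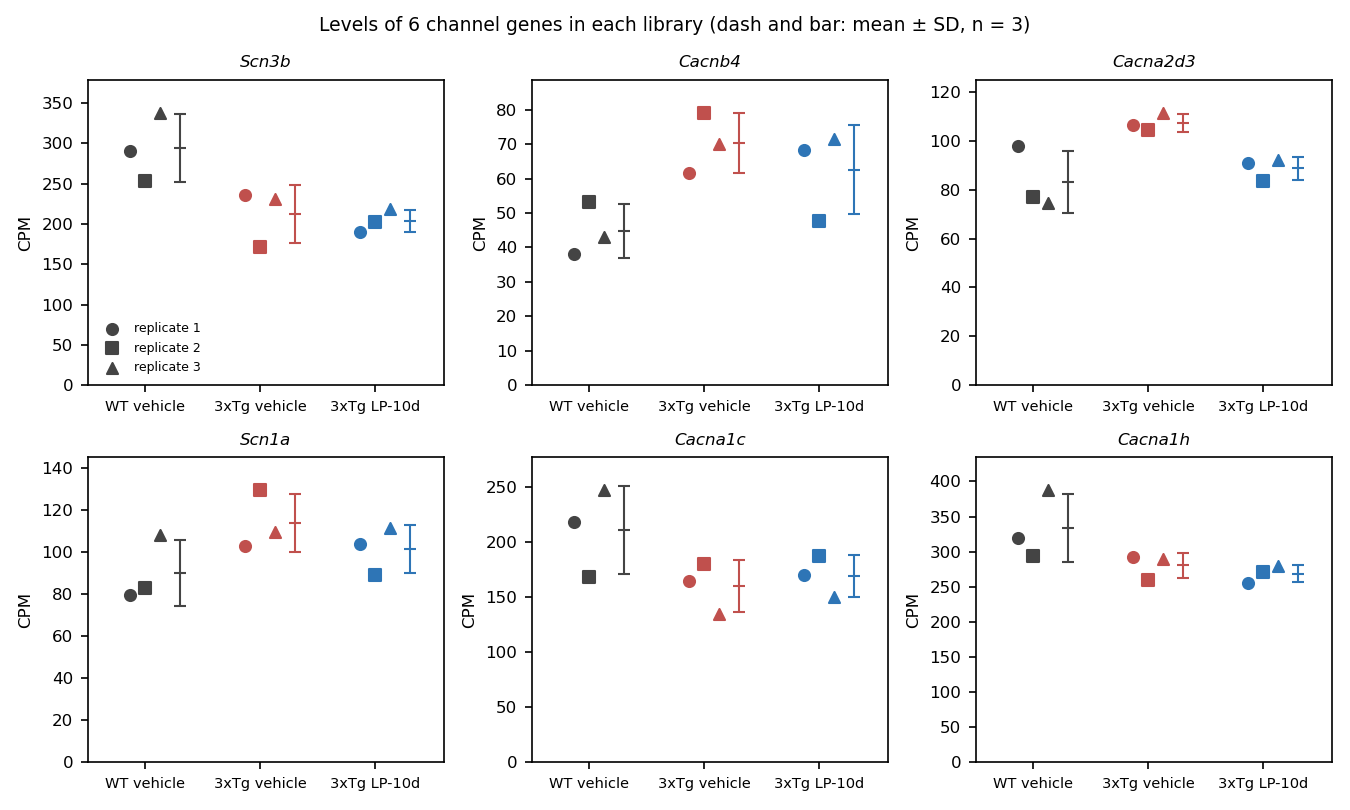
Level in CPM of Scn3b, Cacnb4, Cacna2d3, Scn1a, Cacna1c and Cacna1h in each library, with replicates as separate marks and the group mean ± SD (n = 3) beside them. The 3 WT vehicle marks of Scn3b, between 254 and 338 CPM, lie above all 6 3xTg marks, and those of Cacnb4, between 38.1 and 53.3 CPM, lie below all 3 marks of 3xTg vehicle.

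WT vehicle replicate 3 was the highest library for 14 of the 33 tested channel genes, where it was highest for 26.3% of all genes tested, and 3xTg vehicle replicate 2 for 9 of 33, where it was highest for 12.6% of all genes. The 14 include Scn8a, Scn3b, Cacna1a, Cacna1c, Cacna1e, Cacna1h, Cacnb2 and Hcn2, and the 9 include Scn1a, Scn4b, Cacna1g, Cacnb4 and Hcn4. The part of these libraries in the group differences was measured by leaving them out. Without both, edgeR counted 9, 4, 7 and 7 channel genes at an unadjusted p under 0.05 in the order of the 4 comparisons above, against 12.6%, 5.26%, 9.26% and 12.5% of all genes, and again called 0 in each. Without WT vehicle replicate 3 alone, the median log2 fold change of the channel genes in 3xTg vehicle against WT vehicle was 0.11. In that fit 23 were higher and 10 lower. Without 3xTg vehicle replicate 2 alone the median was -0.11. Medians over all genes are not given for these fits, so a shift shared by all genes cannot be told apart.

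The channels work with anchors, fibroblast growth factor homologs, calmodulins, small G proteins of the Rem and Gem family and release-site scaffolds. Of 24 such partner genes, all of which were tested, edgeR called 0 in each comparison. At an unadjusted p under 0.05 it counted 2 in 3xTg vehicle against WT vehicle where 14.1% of all genes passed, 0 in treated against vehicle 3xTg (2.9%), 1 in treated 3xTg against WT vehicle (8.75%) and 2 in both 3xTg groups against WT vehicle (14.8%), all lower. These counts are below the shares over all genes. Fgf13, which binds the sodium channel tail and microtubules, had a mean of 189 ± 45.4 CPM for WT vehicle, 135 ± 8.10 CPM for 3xTg vehicle and 151 ± 10.6 CPM for treated 3xTg (SD, n = 3 for each), a log2 fold change of -0.48 ± 0.15 (SE) in the first comparison (edgeR adjusted p = 0.240) that was -0.26 without the 2 libraries that stand apart. Nfasc, of the axon initial segment, had means of 567 ± 62.7, 493 ± 17.1 and 474 ± 9.12 CPM for these groups. Its log2 fold change was -0.23 ± 0.08 (SE) in both 3xTg groups against WT vehicle (edgeR adjusted p = 0.256), or -0.15 without those 2 libraries. The median log2 fold change of the partners was -0.09 in 3xTg vehicle against WT vehicle, with 7 higher and 17 lower, beside 0.00 for all genes, and -0.01 without the 2 libraries that stand apart.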

How the data were processed

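RNA of 9 hippocampal libraries was measured, with 3 groups of 3. The authors deposited raw counts per gene for 55471 Ensembl IDs and FPKM values, with symbols, biotypes and positions, for the 33175 that had any count. The ratio of count to FPKM followed each library's total count (largest relative deviation 4.66e-14), so FPKM is scaled to total counts and a gene length. Each library took 300 ng of RNA, per the labels. The submitters' processing notes name mm10 as the build. Which aligner, counter and strand setting were used is not given in the sources used here. Reads of antisense or overlapping genes and of near-identical copies cannot be told apart. Gm13629, opposite Scn9a, had 187 counts against 419 for Scn9a, and Gm16183, opposite Cacna1a, had 696 against 46978 for Cacna1a. GENCODE M21 gave the deposited position for 34 of the 36 channel genes, the others being Cacna1a and Cacna1c.

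The comparisons used edgeR 4.0.16 (R 4.3.3): after filterByExpr, which kept 17396 genes, and TMM scaling, a single fit of group means to all 9 libraries was tested by quasi-likelihood (legacy=FALSE), with Benjamini-Hochberg adjustment over all genes tested and a threshold of 0.05. The common biological coefficient of variation was 0.157. CPM values divide the deposited counts by library sizes scaled with TMM. DESeq2 1.42.0, limma-voom and limma-trend (limma 3.58.1) were alternatives, the last on log2(FPKM + pseudocount), a scale that understates the change of low genes. The scripts were tested on simulated data. With 3 libraries on each side, exact permutation reaches p = 0.1 at the smallest, so it is given for no single gene. Both 3xTg groups against WT vehicle have more libraries on the 3xTg side. That limit does not hold there, and no permutation is given for it either. Every pair of libraries of a group differed by more than sampling noise (chi-square).

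The channel genes and the partner and marker lists were chosen with earlier results of these data known. Every channel gene could be named; values in each library were given for any gene called, for the 12 with the smallest unadjusted edgeR p over the 4 comparisons and for the highest FPKM of each role, except that some genes the rule names are not reported here; Scn2b and Hcn4 were added after their values were seen, the latter because it moves with thalamus markers. From partner and marker lists up to 3 genes with the smallest unadjusted p and genes that define a tissue could be named. Promoter windows are from RefSeq (GRCm38.p6). The fit that leaves out 3xTg vehicle replicate 2 and WT vehicle replicate 3 was chosen after seeing the data.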

Additional observations from a re-analysis of the deposited data

How the results depend on the processing

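The 23 combinations of a channel gene and a comparison with an unadjusted p under 0.05 were recomputed under 21 alternatives, which gave 483 values. Of these, 480 kept their direction and did not pass the threshold (2 of them, Scn4b with DESeq2, have no adjusted p), 0 reversed, and 3 passed it, all with DESeq2: Cacnb4 in 3xTg vehicle against WT vehicle (log2 fold change 0.65) and in both 3xTg groups against WT vehicle (0.56), and Scn3b in the latter (-0.50). DESeq2 thus called 1 channel gene in the first of these comparisons and 2 in the second, where edgeR called 0. Over all genes DESeq2 called 352 in 3xTg vehicle against WT vehicle, 1 in treated against vehicle 3xTg, 46 in treated 3xTg against WT vehicle and 315 in both 3xTg groups against WT vehicle, against edgeR's 1, 0, 0 and 0; the cause was not tested. With no filter on low counts edgeR called 3 genes in the first and 1 in the last; limma-trend called 3 in the first with a pseudocount of 0.1 FPKM, and 2 in the first and 1 in the last with 1 FPKM. Without 3xTg vehicle replicate 2 and WT vehicle replicate 3 together, 1 gene was called in the last. Leaving out each library in turn gave 0 to 11 genes in 3xTg vehicle against WT vehicle, 0 to 0 in treated against vehicle 3xTg, 0 to 2 in treated 3xTg against WT vehicle and 0 to 4 in both 3xTg groups, and 0 to 0 channel genes in each. The highest counts came without WT vehicle replicate 2 (11) and without treated replicate 2 (2 and 4), and the 1 call in 3xTg vehicle against WT vehicle was lost without WT vehicle replicate 1, 3xTg vehicle replicate 2 or 3, or treated replicate 1.

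The labels give no link between same-numbered libraries, and their deviations did not correlate above 0.1 in every pair: the 3 pairs of WT vehicle with 3xTg vehicle were at -0.16 to -0.10, those of WT vehicle with treated 3xTg at -0.17 to 0.19, and those of 3xTg vehicle with treated 3xTg at 0.09 to 0.38. Between the latter groups 5 of 6 libraries correlated best with their own number, a hint of pairing from the data and not from the design. The same held for 0 of 6 between WT vehicle and 3xTg vehicle and for 1 of 6 between WT vehicle and treated 3xTg. Pairs with different numbers ran from -0.31 to 0.40, the highest above every same-numbered pair. With the replicate number as a block edgeR called 0 channel genes in each comparison, and 1, 0, 0 and 0 of all genes. With a common biological coefficient of variation of 0.157 and 3 libraries a group, small differences could not be told from the spread, and the low counts of Scn4a, Scn10a and Scn11a allowed no test.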
